A study of Homo sapiens with 9 samples.

Results

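The RNA sequencing libraries labelled SM4 were compared, across genes, with the libraries labelled NC. They are 6 of the 9 libraries of the series, 3 in each group, and were chosen by the group name in their titles. All come from OVCAR5, an established human ovarian cancer cell line, which the study infected with lentiviral vectors and kept under puromycin. The labels give NC as the control and SM4 as a knockdown of METTL3, and the remaining 3 libraries, labelled SM2, as a knockdown of METTL3 too. NC is called parental in the labels, whereas the methods describe a control hairpin, and which hairpin SM4 carries is not stated. A source field gives each SM4 library a different OVCAR name, although its cell line field says OVCAR5. Labels and methods also differ on the library kit and the read layout. No source used here says that the libraries of a group came from separate cultures, so the p-values measure the spread between libraries, which may be technical.

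METTL3 is the catalytic subunit of the complex that places N6-methyladenosine (m6A) on messenger RNA, a mark that reader proteins recognise and that affects splicing, translation and decay of the transcript. Cells also carry an antiviral programme in which sensors of foreign or misplaced nucleic acid lead to interferon, and interferon acts through JAK kinases and STAT factors to switch on a large set of effector genes. A separate programme, driven by NF-kB, produces chemokines that call in neutrophils, and a further one, driven by YAP and TEAD factors and restrained by the Hippo kinases, follows cell shape and attachment. The genes of these programmes, and of other pathways of an epithelial tumour cell, are described below by their roles. Levels are CPM, counts scaled to library size after TMM normalization, differences are fitted log2 fold changes of SM4 against NC, and a gene was called at a Benjamini-Hochberg adjusted p below 0.05 in the edgeR quasi-likelihood test. "Rose" and "fell" are used only for called genes.

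METTL3 (chr14:21498133-21511342, minus strand, GRCh38) was at 36.3, 34.4 and 36.7 CPM in NC replicates 1, 2 and 3 and at 60.6, 57.5 and 62.4 CPM in SM4 replicates 1, 2 and 3. All 3 SM4 libraries lay above all 3 NC libraries, the opposite of what the label of a knockdown describes (log2 fold change 0.75 ± 0.054 (SE), adjusted p = 2.21e-09). The SM2 libraries were at 37.1, 39.8 and 40.01 CPM, and SM4 lay above them as well (log2 difference 0.63 ± 0.054 (SE), adjusted p = 7.46e-08). Among all genes tested, 38.4% had no overlap between the NC and SM4 libraries, 19.1% with SM4 above and 19.3% with SM4 below. Gene counts do not tell native transcript from any other RNA that maps to METTL3, and they say nothing of the protein. METTL3 overlaps TOX4 on the opposite strand, and TOX4 was at 104, 108 and 102 CPM in NC and 97.0, 103 and 99.6 CPM in SM4 and was not called (log2 fold change -0.068 ± 0.044 (SE), adjusted p = 0.319). Because METTL3 goes against the label, each direction given here is that of the libraries labelled SM4 and rests on their labels. The study reports lower METTL3 and higher ADAM23 after METTL3 knockdown, whereas in SM4 against NC METTL3 was higher and ADAM23 lower. The counts alone do not show whether the titles of the NC and SM4 libraries were exchanged, which was not tested. With those titles exchanged, both groups labelled as knockdowns would have less METTL3 than the control, and every direction of SM4 against NC given here would turn. The libraries labelled SM4, where set against SM2, would then be the control set against a knockdown.

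Of 19 genes of the m6A pathway, 1 rose and 3 fell, against 21.2% called among all 19674 genes tested. METTL3 was the 1 of 8 writers that was called. METTL14, its partner in the catalytic pair, was at 29.4, 30.6 and 30.6 CPM in NC and 27.2, 28.2 and 27.1 CPM in SM4 (log2 fold change -0.13 ± 0.058 (SE), adjusted p = 0.116). The adaptor WTAP had a log2 fold change of -0.065 and the scaffold VIRMA one of -0.12, neither called. Both erasers were called lower, FTO with a log2 fold change of -0.18 and ALKBH5 with -0.18. These calls were lost without any 1 of NC replicates 1, 2 or 3 or SM4 replicates 1 or 3, which left 2 of the 4 called genes. The reader IGF2BP3, which binds and stabilises marked transcripts, fell from 116, 107 and 109.8 CPM to 90.0, 90.4 and 90.7 CPM without overlap (log2 fold change -0.29 ± 0.052 (SE), adjusted p = 2.83e-04).

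Across the 19674 genes tested, 2167 were higher (11.0%) and 2006 lower (10.2%) in SM4, and 6235 (31.7%) had an unadjusted p below 0.05. Most differences were small. The median log2 fold change was 0.38 among genes called higher and -0.27 among genes called lower. A change of at least 2-fold was found in 464 called genes (2.36%), 361 of them higher (1.83%) and 103 lower (0.524%). A mean below 1 CPM was found in 201 of the genes at least 2-fold higher and in 50 of those at least 2-fold lower, so many of these changes lie at low levels. In 22 of the 464 genes, a group had under 4 counts in each of its libraries. At a mean of at least 1 CPM the counts were 160 higher and 53 lower. The libraries held 44103272 to 63693728 counts, so that 1 CPM stood for 43.9 to 63.2 counts in the 6 libraries, with 97.6% to 97.8% of counts in protein-coding genes.

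**Figure D1:**
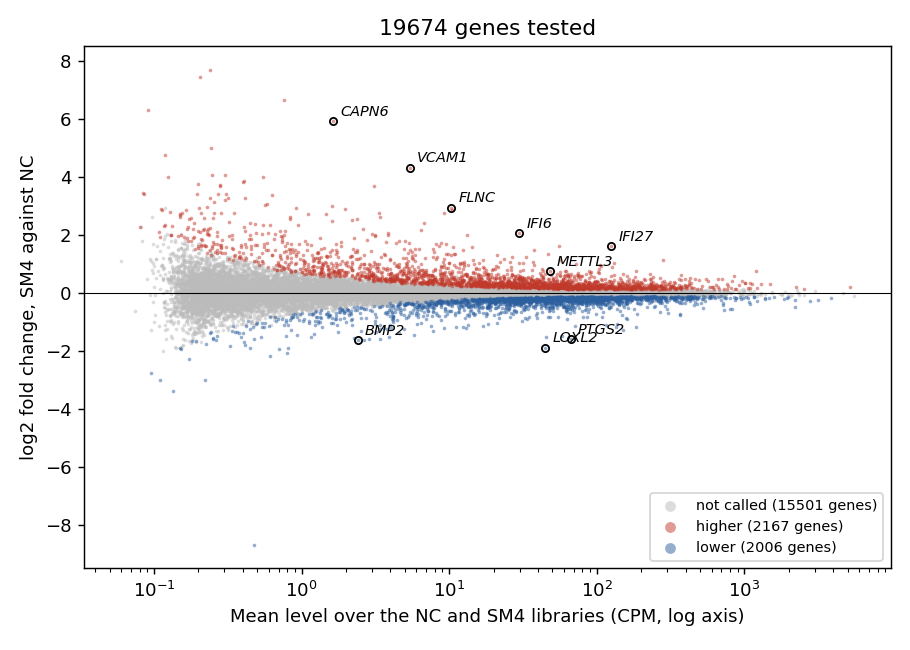
Log2 fold change of SM4 against NC (y axis) plotted against the mean level over the NC and SM4 libraries in CPM (x axis, log scale) for the 19674 genes tested, with called genes in colour. Of the 361 genes at least 2-fold higher, 201 have a mean below 1 CPM, as do 50 of the 103 genes at least 2-fold lower.

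Of 13785 protein-coding genes, 14.7% were higher and 13.4% lower. By comparison, 5.82% of 3147 long non-coding genes and 4.73% of 2431 pseudogenes were called. The base composition of the transcript went with the direction of the change. With protein-coding genes in 5 groups of equal size by GC content, in the group with the lowest GC content 9.0% were higher and 18.2% lower. In the group with the highest GC content, 25.2% were higher and 6.2% lower. The median log2 fold change went from -0.047 to 0.098 between these groups. With trends of length and GC content removed, 4613 genes were called in place of 4173. METTL3 stayed called with these trends removed (log2 fold change 0.79).

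**Figure D2:**
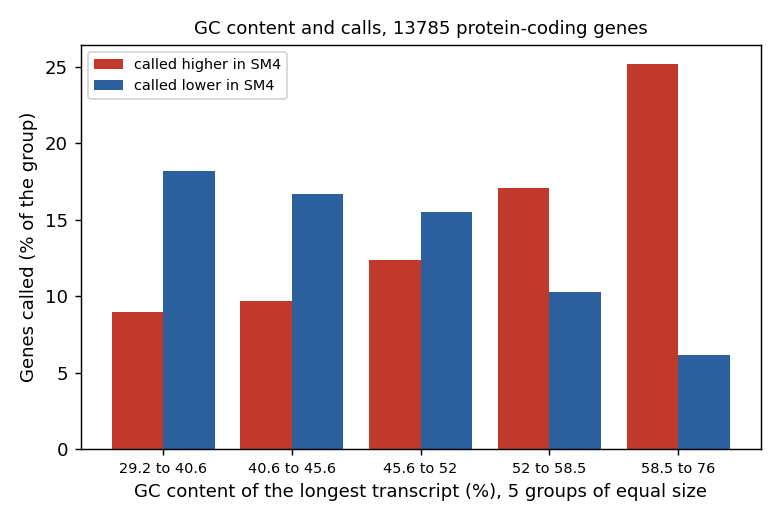
Share of protein-coding genes called higher or lower in SM4 against NC (y axis, percent) in 5 groups of equal size by transcript GC content (x axis). The share called higher goes from 9.0% to 25.2% and the share called lower from 18.2% to 6.2% from the lowest to the highest group.

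Of 83 measured genes of the interferon response, 56 rose and 4 fell, against 11.0% higher and 10.2% lower among all genes, and the median log2 fold change was 0.30 against -0.0011 over all genes. Another 7 of the 90 listed genes were not tested because of low counts, all of them interferons. Against SM2, 43 were higher and 5 lower, where 6.04% of all genes were higher and 6.76% lower. The antiviral effectors held 19 higher members of 27, the other induced genes 22 of 24, and the receptors and signal proteins 5 of 14 with a median of -0.0001.

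IFI6, a small membrane protein that protects infected cells from virus replication, went from 10.7, 11.3 and 13.04 CPM in NC to 45.8, 53.5 and 45.1 CPM in SM4. Every SM4 library was above every NC library (log2 fold change 2.04 ± 0.096 (SE), adjusted p = 3.82e-12). IFI44L went from 1.19, 1.34 and 1.21 CPM to 4.89, 5.27 and 4.90 CPM, also without overlap (log2 fold change 2.00 ± 0.18 (SE), adjusted p = 3.69e-08). XAF1, which binds the apoptosis inhibitor XIAP, was at 1.14, 0.920 and 0.837 CPM in NC and 3.64, 3.29 and 3.69 CPM in SM4 (log2 fold change 1.88 ± 0.18 (SE), adjusted p = 1.58e-07). EPSTI1 and IFI27 rose with log2 fold changes of 1.92 and 1.61.

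Among the antiviral effectors, TRIM22, a ubiquitin ligase, was at 2.03, 2.61 and 3.09 CPM in NC and 7.47, 6.99 and 7.61 CPM in SM4 (log2 fold change 1.498 ± 0.14 (SE), adjusted p = 7.35e-08). The GTPase MX1, which traps viral nucleocapsids, went from 26.4, 25.6 and 27.5 CPM to 66.4, 70.6 and 63.2 CPM (log2 fold change 1.33 ± 0.065 (SE), adjusted p = 6.07e-12). MX1 overlaps TMPRSS2 on the opposite strand, and reads of the pair cannot be told apart if strand was not used in counting. The oligoadenylate synthetases make the messenger that activates RNase L. OAS2 went from 3.47, 2.52 and 3.33 CPM to 6.68, 8.26 and 6.36 CPM (log2 fold change 1.20 ± 0.14 (SE), adjusted p = 1.60e-06). OAS1 went from 34.01, 33.7 and 37.2 CPM to 53.2, 57.0 and 54.2 CPM (log2 fold change 0.65 ± 0.057 (SE), adjusted p = 3.55e-08), while OAS3 rose by a log2 fold change of 0.42. The study names OAS1 and OAS2 as METTL3 targets, so their changes are not an independent choice. The IFIT proteins, which bind the ends of foreign RNA, differed among themselves, with log2 fold changes of 0.59 for IFIT1, 0.78 for IFIT3 and 0.029 for IFIT2, the last not called.

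Upstream of these effectors, 6 of 11 sensors and adaptors rose and 1 fell, or 63.6% called against 21.2% of all genes. Their median log2 fold change was 0.26 where the effectors had 0.42. DHX58, a partner of the RNA sensors, had a log2 fold change of 0.60. IFIH1 (MDA5), the sensor of long double-stranded RNA, was called higher (0.21), and the call was lost without NC replicate 2 or SM4 replicate 2. RIGI, the sensor of short double-stranded RNA, was at 1.10, 0.938 and 1.03 CPM in NC and 1.22, 1.06 and 1.502 CPM in SM4 and was not called (log2 fold change 0.30 ± 0.22 (SE), adjusted p = 0.389). The sensor of DNA, CGAS, was called lower (-0.24), a call lost without NC replicate 2, SM4 replicate 1 or SM4 replicate 2. The interferon receptor chains IFNAR1 (0.025) and IFNAR2 (-0.17) and the kinases JAK1 (-0.046) and TYK2 (0.019) were not called. The receptor chain for interferon gamma, IFNGR1, fell from 106, 98.4 and 106 CPM to 78.2, 83.0 and 76.0 CPM (log2 fold change -0.39 ± 0.048 (SE), adjusted p = 4.49e-06). STAT2, which carries the interferon signal to the nucleus, rose from 41.1, 39.2 and 41.0 CPM to 48.6, 44.4 and 51.3 CPM (log2 fold change 0.25 ± 0.058 (SE), adjusted p = 0.00360). IRF7 rose by 0.61. IRF9, which binds DNA together with STAT2, was called higher (0.51), and that call was lost without any 1 of NC replicates 1, 2 or 3 or SM4 replicates 1 or 3.

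ISG15 is a ubiquitin-like protein that is joined to other proteins by its own enzyme chain. ISG15 went from 73.1, 75.9 and 77.2 CPM to 95.5, 99.4 and 94.9 CPM (log2 fold change 0.36 ± 0.055 (SE), adjusted p = 5.54e-05). Its activating enzyme UBA7 rose by 0.83 and its conjugating enzyme UBE2L6 by 0.62. USP18, which removes ISG15 and damps the receptor, was called lower (-0.55), and the call was lost without NC replicate 3, SM4 replicate 1 or SM4 replicate 3. Of 8 interferon genes listed, IFNE alone had enough counts for testing. It was at 0.274, 0.202 and 0.137 CPM in NC and 0.642, 0.396 and 0.468 CPM in SM4 (log2 fold change 1.31 ± 0.46 (SE), adjusted p = 0.0470). That call was lost without any single NC or SM4 library and under DESeq2.

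The promoters of the antiviral genes with the largest increases are shown because interferon-activated factors bind a short element there. The RefSeq windows (GRCh38.p14) run from 250 bases before to 50 bases after the start site, on the strand of the gene, and were available for MX1, SAMD9L, DDX60 and RSAD2 but not for TRIM22 and OAS2. Capitals mark GAAA followed, after 2 bases of any kind, by GAAA, on either strand, a form of the interferon-stimulated response element. MX1 is at chr21:41420308-41420607, plus strand, SAMD9L at chr7:93148336-93148635, minus strand, DDX60 at chr4:168318703-168319002, minus strand and RSAD2 at chr2:6877527-6877826, plus strand. Where a gene had several windows, the one with the most matches is shown.
MX1: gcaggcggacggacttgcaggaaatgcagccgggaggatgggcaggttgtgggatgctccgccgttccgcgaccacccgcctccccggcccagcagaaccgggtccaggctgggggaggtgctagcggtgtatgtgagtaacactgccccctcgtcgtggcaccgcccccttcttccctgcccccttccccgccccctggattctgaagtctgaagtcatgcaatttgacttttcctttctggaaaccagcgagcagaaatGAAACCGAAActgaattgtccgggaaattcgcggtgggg
SAMD9L: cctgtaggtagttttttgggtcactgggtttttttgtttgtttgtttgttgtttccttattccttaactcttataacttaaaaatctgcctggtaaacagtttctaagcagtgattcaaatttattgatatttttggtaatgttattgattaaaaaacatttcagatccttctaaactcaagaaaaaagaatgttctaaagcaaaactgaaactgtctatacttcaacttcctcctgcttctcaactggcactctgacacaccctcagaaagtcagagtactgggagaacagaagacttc
DDX60: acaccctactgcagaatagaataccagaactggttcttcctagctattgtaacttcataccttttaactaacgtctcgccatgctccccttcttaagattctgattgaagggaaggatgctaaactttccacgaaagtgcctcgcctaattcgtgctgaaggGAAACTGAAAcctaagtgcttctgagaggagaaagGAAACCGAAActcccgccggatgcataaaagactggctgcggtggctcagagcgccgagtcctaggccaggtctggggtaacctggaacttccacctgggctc
RSAD2: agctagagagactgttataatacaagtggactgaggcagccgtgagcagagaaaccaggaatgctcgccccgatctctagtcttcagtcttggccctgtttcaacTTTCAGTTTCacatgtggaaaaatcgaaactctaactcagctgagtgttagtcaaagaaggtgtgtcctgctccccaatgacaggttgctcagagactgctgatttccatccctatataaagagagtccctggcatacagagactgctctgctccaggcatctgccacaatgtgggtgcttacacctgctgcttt
These letters were in 3.57% of all 35116 promoter windows and in 3.91% of the 12218 tested genes with a window. Among the interferon members with a window, 27 of 44 that rose held them, and 6 of 16 that were not called did. DDX60 held 2 matches, MX1 and RSAD2 held 1 each, and the SAMD9L window held 0. A match is a description of letters and no evidence of binding.

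MHC class I presents peptides of the cell's own proteins to T cells. Of its 22 genes, 14 rose and 3 fell (77.3% called against 21.2% of all genes), with a median log2 fold change of 0.29. HLA-B was at 297, 302 and 302 CPM in NC and 414, 434 and 400.4 CPM in SM4 (log2 fold change 0.47 ± 0.053 (SE), adjusted p = 1.36e-06), and the light chain B2M at 972, 963 and 969 CPM and 1242, 1223 and 1194 CPM (log2 fold change 0.33 ± 0.053 (SE), adjusted p = 9.02e-05). Neither gene had overlapping libraries. NLRC5, the transcription factor of class I genes, went from 7.46, 7.52 and 9.12 CPM to 11.4, 13.6 and 12.4 CPM (log2 fold change 0.63 ± 0.099 (SE), adjusted p = 7.84e-05). The immunoproteasome subunits PSMB10 (0.52) and PSMB9 (0.48) and the loading factor TAPBP (0.46) rose as well. The trimming enzyme ERAP1 (-0.28) and the folding helpers CANX (-0.21) and PDIA3 (-0.20) fell. HLA-G, a class I molecule that inhibits immune cells and that the study names as a METTL3 target, was at 3.22, 3.55 and 4.58 CPM in NC and 4.06, 5.10 and 5.42 CPM in SM4. Its groups overlapped and it was not called (log2 fold change 0.35 ± 0.15 (SE), adjusted p = 0.117), though it was called without NC replicate 3. Reads of HLA genes are shared between near-identical copies, so single HLA values are uncertain. Against SM2, 2 of the 22 were higher and 1 lower, where 6.04% of all genes were higher and 6.76% lower.

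Of 36 chemokines and cytokines tested, 17 fell, 4 rose and 15 were not called, or 58.3% called against 21.2% of all genes. Their median log2 fold change was -0.30. Against SM2, 15 were lower and 2 higher, where 6.76% of all genes were lower and 6.04% higher. Of 12 CXC chemokines 6 fell, namely CXCL1, CXCL2, CXCL3, CXCL5, CXCL6 and CXCL8, which attract neutrophils through the receptor CXCR2. CXCL8 was at 194, 193 and 178 CPM in NC and 81.7, 87.7 and 77.2 CPM in SM4, and no library overlapped (log2 fold change -1.20 ± 0.057 (SE), adjusted p = 4.15e-12). CXCL3 went from 183, 183 and 193 CPM to 87.2, 90.0 and 87.6 CPM (log2 fold change -1.08 ± 0.046 (SE), adjusted p = 5.63e-13). CXCL1 went from 208, 207 and 200.2 CPM to 108, 119.8 and 107 CPM (log2 fold change -0.88 ± 0.05 (SE), adjusted p = 6.63e-11). The log2 fold changes of CXCL5, CXCL6 and CXCL2 were -0.88, -0.74 and -0.70. Sequences of CXCL1, CXCL2 and CXCL3 are alike, so counts may be divided unequally between them.

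CCL20, which attracts cells bearing CCR6, fell (log2 fold change -0.89), and the interleukins IL1A (-1.15), IL1B (-0.87) and IL6 (-0.74) were lower too. IL1A, an alarm cytokine of epithelium, was at 22.8, 24.1 and 23.4 CPM in NC and 10.4, 9.59 and 11.6 CPM in SM4. The growth factor CSF2 (-1.04) and the pattern recognition protein PTX3 (-0.84) followed the same direction. The members that rose were CCL2 (3.37), the death ligand TNFSF10 (1.08), TNFSF15 and CXCL10 (0.75). CCL2 was at 0.205, 0 and 0.137 CPM in NC and 1.46, 0.870 and 1.11 CPM in SM4, and CXCL10, an interferon-induced chemokine, lost its call without NC replicate 2, NC replicate 3, SM4 replicate 1 or SM4 replicate 2.

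Of 27 genes of the NF-kB pathway itself, 9 fell and 1 rose (median log2 fold change -0.063), or 37.0% called against 21.2% of all genes. The subunits RELA (0.057), REL (-0.063) and RELB (-0.15) were not called, whereas NFKB2 (-0.20) fell. TNIP3, a feedback inhibitor, went from 5.27, 5.13 and 4.96 CPM to 1.66, 1.71 and 1.72 CPM (log2 fold change -1.59 ± 0.15 (SE), adjusted p = 8.48e-08). BIRC3, another feedback member, and the inhibitor NFKBIA fell (-0.60 and -0.17), and TNFAIP3 was not called (0.12). The kinase IKBKB (0.32) rose and IKBKE (-0.41) fell.

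The promoters of 3 CXC chemokines, chosen after their values were seen, are shown with a form of the NF-kB site in capitals, GGGA followed after 4 bases of any kind by CC, on either strand. The windows are RefSeq's of GRCh38.p14, with CXCL8 at chr4:73740319-73740618, plus strand, CXCL3 at chr4:74038640-74038939, minus strand and CXCL5 at chr4:73998628-73998927, minus strand.
CXCL8: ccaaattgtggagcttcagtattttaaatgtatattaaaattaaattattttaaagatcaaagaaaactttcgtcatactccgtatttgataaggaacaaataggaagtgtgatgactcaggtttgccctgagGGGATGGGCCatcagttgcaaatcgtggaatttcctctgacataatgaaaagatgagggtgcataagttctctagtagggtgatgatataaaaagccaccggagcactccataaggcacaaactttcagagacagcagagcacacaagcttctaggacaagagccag
CXCL3: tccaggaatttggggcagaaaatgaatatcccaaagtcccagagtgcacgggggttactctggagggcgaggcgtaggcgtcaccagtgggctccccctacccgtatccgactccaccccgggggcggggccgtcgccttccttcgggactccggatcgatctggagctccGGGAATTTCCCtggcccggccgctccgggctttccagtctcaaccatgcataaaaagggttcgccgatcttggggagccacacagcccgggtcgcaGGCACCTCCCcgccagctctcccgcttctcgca
CXCL5: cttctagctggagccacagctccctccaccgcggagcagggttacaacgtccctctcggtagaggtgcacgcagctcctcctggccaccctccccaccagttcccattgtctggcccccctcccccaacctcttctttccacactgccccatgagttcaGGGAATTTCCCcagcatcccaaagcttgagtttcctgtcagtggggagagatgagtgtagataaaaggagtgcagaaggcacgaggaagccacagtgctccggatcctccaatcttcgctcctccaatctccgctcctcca
CXCL8 held 1 match, CXCL5 held 2 that overlap and CXCL3 held 3, of which 2 overlap. The letters were in 25.6% of all windows and 37.4% of tested genes with a window, so they are common. Other forms of the site were not searched for and stay in lower case, and a match is no evidence of binding. Of the chemokines and cytokines with a window, 12 of 15 that fell and 3 of 7 that were not called held them.

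PTGS2 (cyclooxygenase 2) makes the precursor of prostaglandins and shares inducers with these cytokines. It was at 105, 89.8 and 105 CPM in NC and 33.4, 32.5 and 33.1 CPM in SM4 (log2 fold change -1.60 ± 0.063 (SE), adjusted p = 1.92e-13). SM2 was at 37.7, 39.4 and 34.7 CPM, and SM4 was not called against it (log2 difference -0.17 ± 0.064 (SE), adjusted p = 0.0844). PTGS2 overlaps PACERR on the opposite strand. Of 15 prostaglandin genes, 4 fell and 2 rose. The exporter ABCC4 (-0.86) fell and the uptake transporter SLCO2A1 (1.95) rose. KYNU, which splits kynurenine, went from 68.2, 67.9 and 64.2 CPM to 24.3, 22.8 and 22.3 CPM without overlap (log2 fold change -1.53 ± 0.055 (SE), adjusted p = 6.84e-14). Of 17 genes of tryptophan breakdown and its receptor, 3 fell and 2 rose, or 29.4% called against 21.2% of all genes. IDO1, the entry enzyme, rose from 1.118, 0.625 and 0.991 CPM to 1.97, 1.93 and 1.62 CPM (log2 fold change 1.03 ± 0.21 (SE), adjusted p = 0.00133), and the receptor's target CYP1B1 fell (-1.28).

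**Figure D3:**
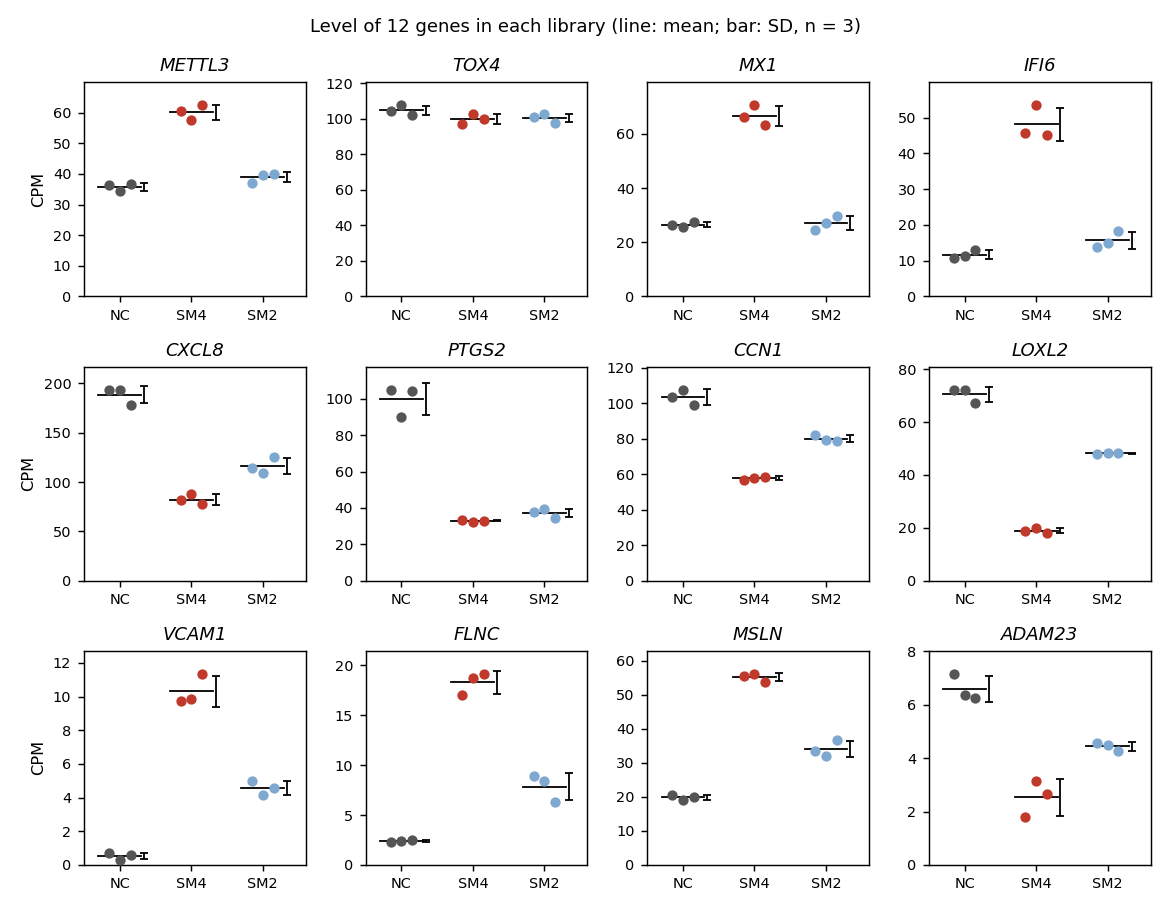
CPM (y axis) of 12 genes in the NC, SM4 and SM2 libraries, 1 point per library, a line at the mean and a bar for the SD (n = 3), with a separate panel and scale per gene. METTL3 is at 34.4 to 36.7 CPM in NC and 57.5 to 62.4 CPM in SM4, and CXCL8 and PTGS2 lie lower in SM4 than in NC.

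Of 16 targets of YAP and TEAD tested, 12 fell and 0 rose, or 75.0% called against 21.2% of all genes. Their median log2 fold change was -0.27. Over the whole Hippo list of 37 genes, 17 fell and 6 rose (62.2% called). Leaving out NC replicate 2 or SM4 replicate 3 brought the 23 called to 15. CCN1, a matricellular protein, was at 104, 108 and 98.9 CPM in NC and 56.5, 57.8 and 58.6 CPM in SM4 (log2 fold change -0.84 ± 0.047 (SE), adjusted p = 5.39e-11). CCN2 went from 18.7, 16.3 and 16.9 CPM to 9.52, 10.5 and 9.34 CPM (log2 fold change -0.82 ± 0.089 (SE), adjusted p = 7.88e-07). No library of either gene overlapped between the groups. The growth factor TGFB2 (-0.49) and the receptor kinase AXL (-0.35) also fell. The letters GGAATG, which TEAD factors bind, were in 14.0% of all windows. By gene, they were in 15.1% of tested genes with a window and in 16.0% of those called lower. Of the targets with a window, 5 of 8 that fell and 1 of 2 that were not called held them. These matches are no evidence of binding.

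The kinases LATS1 (-0.065), LATS2 (0.011) and STK4 (0.11) were not called. AMOT, an angiomotin that holds YAP in the cytoplasm, went from 0.365, 0.460 and 0.256 CPM to 2.68, 2.74 and 3.12 CPM (log2 fold change 2.98 ± 0.21 (SE), adjusted p = 1.501e-09). YAP1 was called lower (-0.18), and leaving out NC replicate 1, NC replicate 2, SM4 replicate 1 or SM4 replicate 3 removed the call. WWTR1 (TAZ) was at -0.13 and not called. Of the competing cofactors, VGLL1 rose (1.58) and VGLL3 fell (-1.13). Among 27 immediate-early genes, 8 fell and 2 rose, or 37.0% called against 21.2% of all genes. Without SM4 replicate 1 or SM4 replicate 3, 6 were called. JUN went from 45.9, 47.0 and 40.9 CPM to 22.6, 25.9 and 25.9 CPM (log2 fold change -0.85 ± 0.068 (SE), adjusted p = 1.17e-08), FOSL1 (-0.46) and FOSL2 (-0.47) fell, and FOS rose (0.52).

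**Figure D4:**
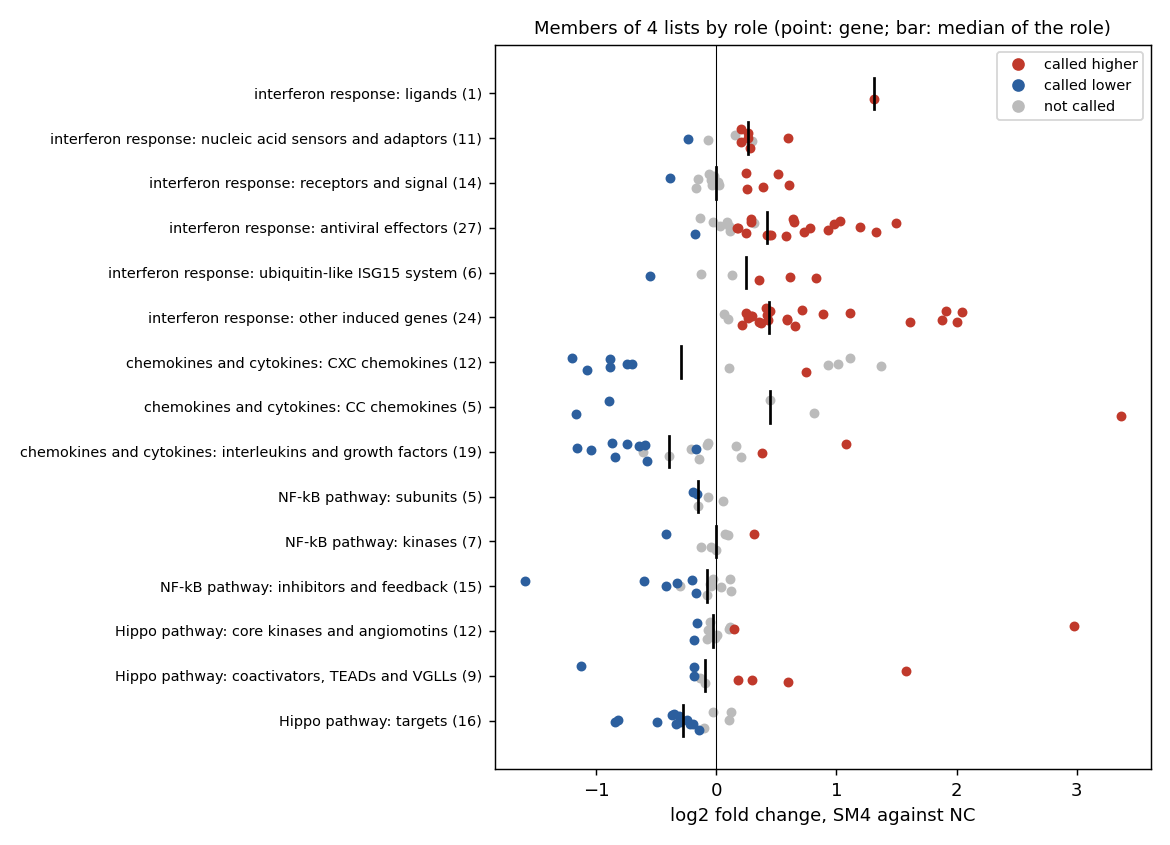
Log2 fold change of SM4 against NC (x axis) for each tested member of the interferon, chemokine and cytokine, NF-kB and Hippo lists, grouped by role (y axis, members tested in parentheses), with 1 point per gene, colours for the call and a bar at the median of the role. The interferon effectors have a median of 0.42 and the receptors and signal proteins one of -0.0001, while the Hippo targets have a median of -0.27.

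The mesenchymal list was divided, with 8 higher and 11 lower of 38 (median log2 fold change 0.0052). Thus 19 of the 38 were called, where 21.2% of all genes were. LOXL2, a lysyl oxidase that cross-links collagen, was at 72.3, 72.1 and 67.1 CPM in NC and 18.9, 19.9 and 18.0 CPM in SM4 (log2 fold change -1.89 ± 0.055 (SE), adjusted p = 6.71e-15), with SM2 at 47.9, 48.4 and 48.2 CPM. Its exons overlap those of ENTPD4 and of LOXL2-AS1. LOX (-0.60), the matrix protein TNC (-0.70) and the transcription factor SNAI2 (-0.95) fell. The filament protein VIM rose from 6.30, 5.74 and 4.72 CPM to 14.7, 15.3 and 12.3 CPM (log2 fold change 1.35 ± 0.099 (SE), adjusted p = 3.03e-09), as did SPARC (1.04) and the basement membrane collagen COL4A1 (1.48). Of 30 matrix proteases and inhibitors, 8 rose and 8 fell (53.3% called). ADAM23, a catalytically inactive adhesion protein that the study names as a METTL3 target, went from 7.16, 6.36 and 6.25 CPM to 1.79, 3.15 and 2.67 CPM (log2 fold change -1.37 ± 0.15 (SE), adjusted p = 1.08e-06). The inhibitor TIMP3 rose (0.99).

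Adhesion molecules held 19 higher and 9 lower of 56, so 28 were called, where 21.2% of all genes were. VCAM1, TM4SF4 and MCAM were among the 10 largest increases of protein-coding genes at a mean of at least 1 CPM. VCAM1, a receptor for leukocyte integrins, was at 0.707, 0.313 and 0.564 CPM in NC and 9.74, 9.84 and 11.4 CPM in SM4 (log2 fold change 4.31 ± 0.18 (SE), adjusted p = 3.87e-13). MCAM went from 2.44, 2.24 and 2.46 CPM to 15.9, 17.6 and 14.8 CPM (log2 fold change 2.76 ± 0.099 (SE), adjusted p = 6.84e-14), and it shares sequence with CBL on the opposite strand. TM4SF4, a tetraspanin-like protein, went from 0.365, 0.515 and 0.444 CPM to 5.61, 5.93 and 5.56 CPM (log2 fold change 3.67 ± 0.20 (SE), adjusted p = 3.26e-11). JAM3 (2.55) and L1CAM (0.89) also rose. CDH1, the epithelial cadherin, fell (-0.36), and CEACAM5 (-1.51) and the desmosomal cadherin DSG2 (-0.37) did too. CDH2, the neural cadherin, was called higher (2.29) from 0, 0.0736 and 0.0342 CPM to 0.115, 0.222 and 0.254 CPM, a call lost without NC replicate 1, NC replicate 3, SM4 replicate 2 or SM4 replicate 3. Of 21 integrin subunits, 9 rose and 0 fell (42.9% called). The 9 included ITGB6 (0.55), which activates latent TGF-beta, ITGB8 (0.43) and ITGB4 (0.42). ITGB1, the common beta chain, was not called (-0.044).

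Keratins and genes of the cornified envelope held 14 higher and 4 lower of 26, or 69.2% called against 21.2% of all genes. Their median log2 fold change was 0.28. KRT13, a keratin of moist stratified epithelium, was at 5.27, 5.41 and 5.18 CPM in NC and 21.2, 20.95 and 21.3 CPM in SM4 (log2 fold change 2.00 ± 0.075 (SE), adjusted p = 1.03e-13). KRT4, its partner, had a log2 fold change of 2.61 and LY6D one of 1.60. The simple keratins KRT19 (0.30) and KRT8 (0.19) rose by less, and KRT6B (-0.996) and KRT80 (-0.42) fell. FOXJ1, the master regulator of motile cilia, went from 2.21, 2.74 and 2.70 CPM to 18.0, 18.3 and 19.02 CPM (log2 fold change 2.84 ± 0.098 (SE), adjusted p = 4.74e-14), and it overlaps RNF157-AS1 on the opposite strand. MSLN, a surface protein of ovarian cancers, went from 20.6, 19.2 and 19.8 CPM to 55.6, 56.1 and 53.8 CPM (log2 fold change 1.48 ± 0.06 (SE), adjusted p = 3.23e-13). Neither had overlapping libraries. MSLN was chosen after its values were seen, as were other members named here beyond the ranks of the rule.

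Targets of NRF2, the factor of the oxidant response, held 13 lower and 3 higher of 28, with 12 not called. This was 57.1% called against 21.2% of all genes, with a median log2 fold change of -0.18. GCLM, a subunit of the enzyme that limits glutathione synthesis, was at 85.7, 90.5 and 83.8 CPM in NC and 53.6, 58.2 and 52.0 CPM in SM4 (log2 fold change -0.67 ± 0.059 (SE), adjusted p = 3.94e-08). AKR1C2 (-1.25), HMOX1 (-0.54) and FTL (-0.55) fell, and ALDH3A1 rose (1.02). NFE2L2, which encodes NRF2, was not called (0.067). Targets of ATF4, the factor of amino acid stress, held 10 higher and 3 lower of 18 (72.2% called). PHGDH, the first enzyme of serine synthesis, went from 72.6, 76.7 and 68.8 CPM to 133, 142 and 143 CPM (log2 fold change 0.94 ± 0.052 (SE), adjusted p = 4.58e-11). SESN2 (0.84), CHAC1 (0.62) and PSAT1 (0.42) rose too, STC2 (-0.41) fell, and ATF4 itself was not called (0.13).

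Of 38 genes of glycolysis and hypoxia, 12 fell and 2 rose, or 36.8% called against 21.2% of all genes. LDHA, which makes lactate, was at 2578, 2602 and 2550 CPM in NC and 1789, 1887 and 1827 CPM in SM4 (log2 fold change -0.49 ± 0.035 (SE), adjusted p = 2.31e-09). The oxygen-regulated factor EPAS1 fell (-0.65), and HIF1A was not called (-0.12). The glucose transporter SLC2A3 rose (0.46). Of 22 genes linked to platinum transport, 7 fell and 4 rose, so 11 were called, where 21.2% of all genes were. Leaving out 1 library gave 8 to 11 called. Of 6 uptake genes, 4 fell and 0 rose (66.7% called), among them the copper transporter SLC31A1 (-0.22), which fell. SLC31A2 (-0.85) and SLC22A3 (-0.41) were called lower too. The SLC31A2 call was lost without NC replicate 1, NC replicate 3, SM4 replicate 2 or SM4 replicate 3. That of SLC22A3 was lost without NC replicate 1, NC replicate 2, SM4 replicate 1 or SM4 replicate 2. The 16 genes of efflux and binding were divided, with 4 higher and 3 lower and a median log2 fold change of -0.072. The copper pump ATP7B (0.46) rose and the exporter ABCC4 (-0.86) fell.

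Of 46 TGF-beta and BMP genes, 11 rose and 11 fell, or 47.8% called against 21.2% of all genes. BMP2, a bone morphogenetic ligand, went from 3.49, 3.55 and 3.86 CPM to 1.27, 0.902 and 1.35 CPM (log2 fold change -1.64 ± 0.17 (SE), adjusted p = 3.08e-07). The stress-induced ligand GDF15 went from 16.5, 15.3 and 15.7 CPM to 33.0, 38.7 and 39.6 CPM (log2 fold change 1.23 ± 0.077 (SE), adjusted p = 3.16e-10). The activin subunit INHBB (1.37) and the co-receptor ENG (0.68) rose, and TGFB1 (-0.29) and the activin antagonist FST (-0.59) fell. CHRD, a BMP antagonist, was at 0.0456, 0.0368 and 0 CPM in NC and 0.707, 0.396 and 0.293 CPM in SM4 (log2 fold change 4.07 ± 0.67 (SE), adjusted p = 1.27e-04). In the Notch list of 31, 5 rose and 2 fell (22.6% called, near the 21.2% of all genes), with 11 called without SM2 replicate 3. The receptor NOTCH3 (0.58) and the ligand JAG2 (0.50) rose, while JAG1 (-0.57) fell. In ERBB signalling, 4 rose and 4 fell of 21 (38.1% called), and 5 were called without NC replicate 2 or SM4 replicate 3. The ligands AREG (-0.50) and EREG (-0.51) fell, the receptor ERBB2 rose (0.29), and EGFR was not called (0.053). Of 5 VEGF genes, 2 fell, including the co-receptor NRP2 (-0.75), and 1 rose (60.0% called).

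CFTR, the chloride channel of epithelia, was at 3.19, 3.15 and 3.78 CPM in NC and 0.971, 1.30 and 1.17 CPM in SM4 (log2 fold change -1.56 ± 0.15 (SE), adjusted p = 2.20e-07), and it overlaps several genes on the opposite strand. Of the 17 genes of epithelial ion transport, 6 rose and CFTR alone fell, or 41.2% called against 21.2% of all genes. The potassium channel KCNN4 rose (1.09). CA2, a carbonic anhydrase that the study names as a METTL3 target, went from 40.3, 44 and 39.96 CPM to 21.5, 22.2 and 20.3 CPM (log2 fold change -0.96 ± 0.06 (SE), adjusted p = 3.00e-10). Of 9 carbonic anhydrases, 2 rose and 2 fell (44.4% called). Of 17 coagulation genes, 7 fell and 2 rose (52.9% called). The clotting factor F5 went from 4.70, 4.34 and 3.86 CPM to 1.58, 1.20 and 1.502 CPM (log2 fold change -1.59 ± 0.18 (SE), adjusted p = 1.14e-06), and thrombomodulin, THBD, fell (-0.60). BCL2A1, a survival member of the BCL2 family, went from 1.92, 1.95 and 1.30 CPM to 0.609, 0.649 and 0.507 CPM (log2 fold change -1.53 ± 0.23 (SE), adjusted p = 4.78e-05). Of 16 BCL2 family genes, 4 fell and 2 rose (37.5% called).

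Some classes had a smaller share called than the 21.2% of all genes. Cytosolic ribosomal proteins held 14 lower and 0 higher of 84, with log2 fold changes from -0.29 to 0.078. Leave-one-out counts ran from 3 to 33. Oxidative phosphorylation held 12 lower and 2 higher of 76, homologous recombination 3 higher and 2 lower of 26, splicing factors 1 higher and 2 lower of 33, HOX genes 3 higher and 0 lower of 27, and zinc finger genes of chromosome 19 held 12 higher and 4 lower of 176. Cell division, at 28.4% called, held 11 higher and 8 lower of 67, and 11 genes were called without NC replicate 1. Of other large families, histones held 10 higher and 0 lower of 45 (22.2% called), solute carriers 47 higher and 40 lower of 259 (33.6%), collagens 6 higher and 2 lower of 28 (28.6%), NOD-like receptors 3 higher and 1 lower of 14 (28.6%), and protocadherins 1 higher and 1 lower of 21 (9.52%). Across the 39 lists, 8 had a smaller share called than all genes and 18 had at least 40% called.

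**Figure D5:**
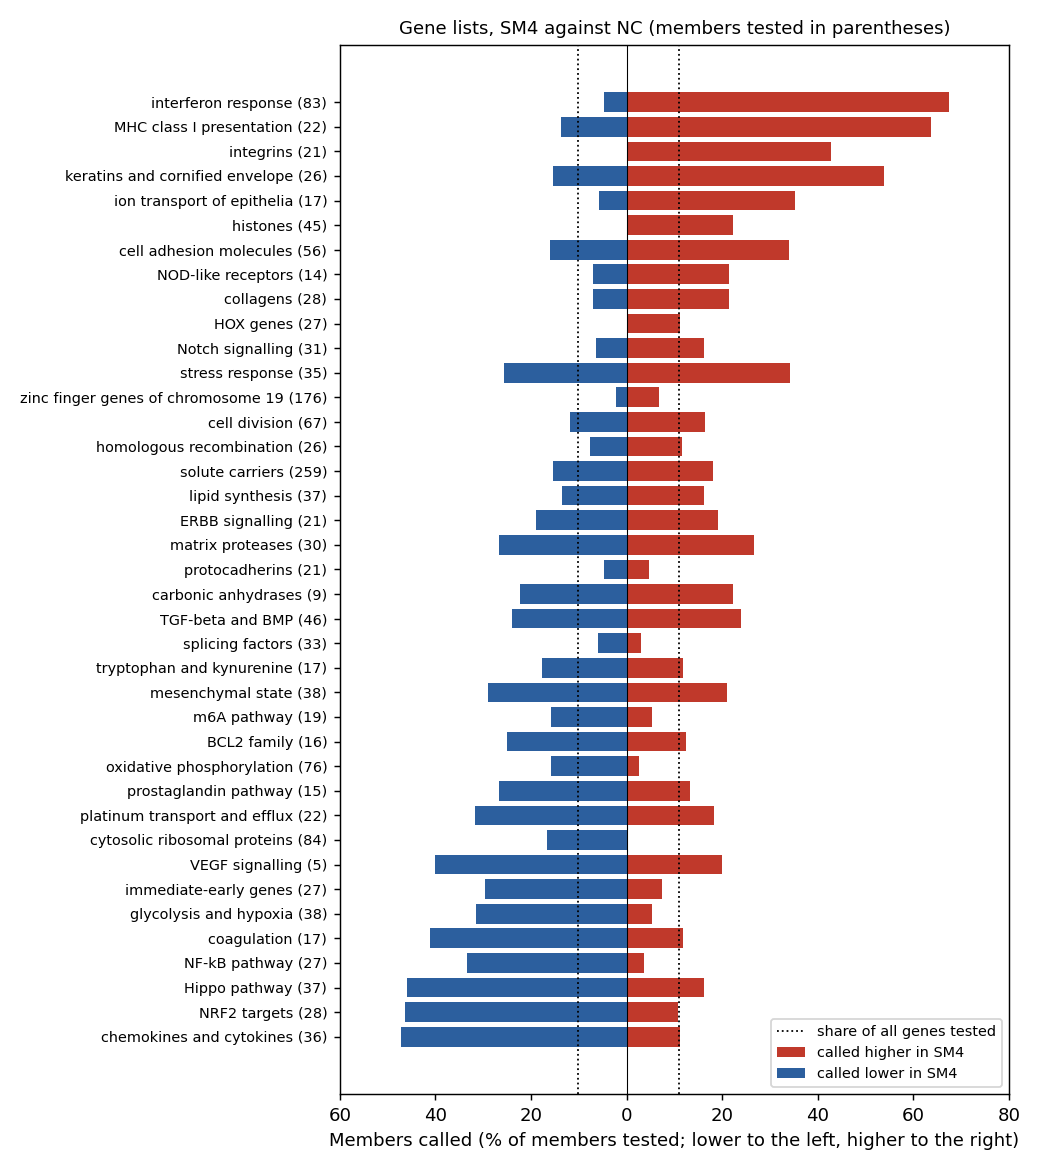
Share of tested members called higher and lower in SM4 against NC for each gene list (x axis, percent of members tested, lower to the left and higher to the right; y axis, list with members tested in parentheses), with dotted lines at the shares of all genes, 10.2% and 11.0%. The interferon list, with 56 of 83 higher, and the chemokine list, with 17 of 36 lower, lie on opposite sides.

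By rank among protein-coding genes at a mean of at least 1 CPM, the largest increase was that of CAPN6 (chrX:111245099-111270483, minus strand), a calpain without protease activity. It had at most 4 counts in any NC library and was at 0, 0.0736 and 0.0683 CPM there, against 3.13, 3.07 and 3.45 CPM in SM4. Its fitted log2 fold change of 5.92 therefore depends on the small counts added in the fit. FLNC, a filamin of muscle, went from 2.28, 2.43 and 2.49 CPM to 17.0, 18.8 and 19.2 CPM (log2 fold change 2.92 ± 0.12 (SE), adjusted p = 3.73e-13). AUTS2 (2.87), PALM (2.75) and ARNT2 (2.72) rose as well. Besides genes named above, HCLS1 (-1.63), a signalling adaptor known from blood cells, and DNER (-1.54), a Notch-related membrane protein, were among the 10 largest decreases. DNER was at 6.34, 5.35 and 5.71 CPM in NC, 1.96, 1.79 and 2.26 CPM in SM4 and 5.98, 5.83 and 5.38 CPM in SM2.

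Among long non-coding genes the largest increases were in LINC01977 (1.20), LINC02381 (1.06) and LINC01978 (1.04) and the largest decreases in LINC02762 (-1.41), LINC02246 (-1.35) and SOX21-AS1 (-1.24). SOX21-AS1 went from 5.61, 5.43 and 5.06 CPM to 2.52, 2.23 and 2.05 CPM (log2 fold change -1.24 ± 0.13 (SE), adjusted p = 7.68e-07).

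Some called genes had 0 counts in every library of a group, and those named here were chosen after their values were seen. PRND, a relative of the prion protein, was at 0.867, 1.01 and 0.991 CPM in NC and at 0 in all SM4 libraries, at least 18.5-fold lower against a floor of 3 counts per library. XYLT1 and HS3ST3B1, which build or modify the sugar chains of proteoglycans, had 0 counts in all NC libraries. They were higher in SM4 by at least 3.11-fold for XYLT1 and 6.98-fold for HS3ST3B1. SM2 was at 0.267 CPM for XYLT1 and 0.247 CPM for HS3ST3B1.

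The SM2 libraries carry the same knockdown label, and SM4 was tested against them directly. SM4 and SM2 differed in 2518 genes (12.8%), 1188 higher and 1330 lower in SM4, 155 of them by at least 2-fold (0.788%), and 1574 were called without SM4 replicate 1. In 509 of the 19674 genes tested SM4 was called higher than both NC and SM2, and the genes lower than both were not counted. Of 24 genes of cholesterol synthesis, 2 rose and 1 fell against NC (12.5% called against 21.2% of all genes). Against SM2, 1 was higher and 21 lower. HMGCS1, which makes the precursor of mevalonate, was at 129, 123 and 129 CPM in NC, 118, 117 and 114 CPM in SM4 and 192, 176 and 159 CPM in SM2 (SM4 against SM2, log2 difference -0.59 ± 0.055 (SE), adjusted p = 1.87e-07).

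The labelled cell type was checked against marker lists. All 7 epithelial markers were at 1 CPM or more, with sums of 11240 to 11720 CPM in NC and 12150 to 12910 CPM in SM4. Of 7 Müllerian and mesothelial markers 5 were, with sums of 160.1 to 174.8 CPM in NC and 205.1 to 212.4 CPM in SM4. CALB2 had means of 103.5 CPM in NC and 98.3 CPM in SM4, MSLN of 19.8 and 55.1 CPM, and PAX8 of 8.28 and 8.51 CPM. WT1 had at most 8 counts and SOX17 at most 10 in any library. Gastrointestinal markers reached 1 CPM in 3 of 7, fibroblast markers in 1 of 6, leukocyte markers in 1 of 5 and endothelial markers in 1 of 4. The gastrointestinal factors CDX2 and HNF4A had means of 12.05 and 6.64 CPM in NC and of 8.8 and 5.47 CPM in SM4. CD3E and MS4A1 had 0 counts in the 6 libraries, and PTPRC, which defines leukocytes, had at most 1 count in any library. Marker levels are CPM with TMM scaling over all counts, before the filter on low counts. CD14 was at 5.313, 5.644 and 6.318 CPM in NC and 9.83, 10.60 and 10.43 CPM in SM4, and made up most of the leukocyte sums, 5.427 to 6.318 CPM in NC and 10.01 to 10.65 CPM in SM4. PECAM1, an adhesion molecule of endothelium, was at 5.427, 5.699 and 5.294 CPM in NC and 12.97, 13.06 and 14.99 CPM in SM4 (log2 fold change 1.32 ± 0.095 (SE), adjusted p = 2.29e-09), and made up most of the endothelial sums, 5.414 to 5.846 CPM in NC and 13.13 to 15.22 CPM in SM4. The other endothelial markers were at or near 0, with 0 counts of KDR in the 6 libraries and at most 9 counts of CDH5 and 15 of VWF in any library.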

How the data were processed

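RNA sequencing counts of 9 libraries in 3 groups of 3 were analysed. The authors deposited raw counts per gene. Per the methods, reads were checked with FastQC, aligned to hg38 with HISAT2 and counted with Subread, and the submitters' processing notes also list fastp and featureCounts. Versions, the gene annotation and the strand setting are not given in the sources used here. Groups came from the library titles, which METTL3 goes against. The table held 60649 gene identifiers, of which 60463 matched GENCODE 44 (GRCh38) without their version suffix, which supplied symbols and positions.

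In R 4.3.3, filterByExpr of edgeR 4.0.16 kept 19674 genes and removed 40975. The counts were TMM-normalized, with factors from 0.989 to 1.01, and tested with the edgeR quasi-likelihood F test with Benjamini-Hochberg adjustment over all genes tested. All 9 libraries entered 1 model with the group alone (common biological coefficient of variation 0.0587), with the contrasts SM4 minus NC and SM4 minus SM2. CPM values were computed from the deposited counts, which carry no molecular identifiers, so depth limits counting error only. Alternatives were other scalings, filters, sample sets and trends, a replicate block, DESeq2 1.42.0 and leaving out each library. Promoter windows were searched on both strands with Python 3.11.15.

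Named genes were METTL3, 5 genes of the study text, the 10 largest increases and 10 largest decreases among called protein-coding genes at a mean of at least 1 CPM without overlap, 3 long non-coding genes in each direction, and up to 3 called members per direction of each list. Further members were named for their role or after their values were seen, and not all of them are marked where they appear. The comparison and the lists were chosen with earlier results of these data known. Lists are described by counts and medians, without a set test. Some items are not reported here.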

Additional observations from a re-analysis of the deposited data

Results flagged for a closer look

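For 23 genes among METTL3, the genes the study names and the genes chosen by rank, the SM4 and SM2 libraries, which carry the same knockdown label, differed by a direct test of SM4 against SM2 in edgeR. Values are log2 differences of SM4 minus SM2, from the fit with all 9 libraries, and no cause was tested. METTL3 was higher in SM4 by 0.63 (adjusted p = 7.46e-08).

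In most of these genes the mean of SM2 lay between the means of NC and SM4, an order that rests on the labels of the libraries. Most were chosen for a large difference of SM4 from NC, and all for a difference from SM2, a choice that favours this order. The interferon effectors OAS1 and OAS2 were higher in SM4 by 0.64 and 1.02. SM2 was at 35.2 CPM for OAS1, near the 34.99 CPM of NC. CAPN6 (3.18), VCAM1 (1.17), FLNC (1.22), FOXJ1 (1.20) and MCAM (0.34) were also higher in SM4 than in SM2. LOXL2 (-1.34), HCLS1 (-1.47), DNER (-1.52), BCL2A1 (-1.18), ADAM23 (-0.81), TNIP3 (-0.62), CA2 (-0.60) and KYNU (-0.26) were lower in SM4 than in SM2. So were the long non-coding genes LINC02762 (-1.01), LINC02246 (-0.90) and SOX21-AS1 (-0.51).

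In 4 genes the mean of SM2 lay outside those of NC and SM4. HLA-G, which was not called against NC, was higher in SM4 than in SM2 by 0.48 (adjusted p = 0.0496), with 3.78 CPM in NC, 4.86 CPM in SM4 and 3.49 CPM in SM2. AUTS2 was lower in SM4 than in SM2 (-0.59), with 0.476 CPM in NC, 3.47 CPM in SM4 and 5.24 CPM in SM2. BMP2 (-2.05) and CFTR (-2.27) had SM2 above NC and SM4 below it. BMP2 was at 3.63 CPM in NC, 1.17 CPM in SM4 and 4.83 CPM in SM2. CFTR was at 3.37 CPM in NC, 1.15 CPM in SM4 and 5.54 CPM in SM2.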

How the results depend on the processing

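The 4173 genes called in SM4 against NC became 4111 with DESeq2 size factors, 4169 with upper-quartile scaling, 4107 without a filter, 4103 at a mean of at least 1 CPM, 5431 with only the 6 libraries compared, 4613 with length and GC trends removed and 4230 in DESeq2. Leaving out 1 library gave 2933 to 5227, and 1574 to 2748 for the 2518 of SM4 against SM2. No named gene that was called changed sign, and the signs of other called genes were not compared. METTL3 stayed called, at log2 fold changes of 0.72 to 0.79. Of 283 called named genes, 227 kept their call under every alternative and 56 lost it at least once. Another 18 named genes that were not called became called under at least 1 alternative, ATF4, TNFAIP3, RELB, HIF1A and WWTR1 among them. Some named genes that were not called changed sign, IFIT2, TYK2 and LATS2 among them.

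Same-numbered NC and SM4 libraries deviated together with correlations of 0.013, 0.023 and 0.041, so the numbers were not taken to pair the samples. A replicate block gave 4484 called genes, and 4796 with length and GC trends removed too, and each NC or SM4 library correlated best, among libraries of the other of these groups, with its own number, a hint from the data and not the design. The SM2 and SM4 libraries did not do so.

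The 464 genes at 2-fold or more fell to 226 at a mean of at least 1 CPM. With only the 6 libraries compared, calls were 6 for HOX genes, 11 for Notch, 29 for cell division, 42 for ribosomal proteins, 7 for m6A, 24 for oxidative phosphorylation and 7 for splicing. With length and GC trends removed they were 5 for HOX genes, 9 for homologous recombination and 5 for splicing, and with the replicate block as well 5, 8 and 8, and 24 for ribosomal proteins. Ribosomal proteins had 8 with upper-quartile scaling and 22 without a filter. Leaving out 1 library gave 5 to 10 for ERBB, 1 to 5 for HOX genes, 15 to 26 for Hippo, 6 to 11 for Notch, 11 to 26 for cell division, 3 to 33 for ribosomal proteins, 3 to 8 for homologous recombination, 6 to 10 for immediate-early genes, 2 to 6 for m6A, 5 to 21 for oxidative phosphorylation, 1 to 2 for protocadherins and 2 to 5 for splicing. The causes were not tested, beyond the fewer libraries or genes that an alternative holds.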
